A study of Homo sapiens with 9 samples.

Results

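The genes described here were the 39 HOX genes of the 4 human HOX clusters, taken as every gene symbol in the gene tables that starts with HOX, carries a cluster letter from A to D and ends in a paralog number. They were 39 of 27111 genes, with 11 in HOXA, 10 in HOXB, 9 in HOXC and 9 in HOXD. RNA came from multicellular tumor spheroids (MTSs) of PC-3, an established line from a bone metastasis of human prostate adenocarcinoma, in 3 groups of 3 libraries. Every group had been infected with a lentivirus and selected with puromycin. The vector was empty in the Empty group (libraries A, B and C), and it carried the long splice isoform of NF-YA in the NF-YAl group (libraries A, B and D) or the short isoform in the NF-YAs group (libraries A, B and C). The transgenes were murine NF-YA sequences, each line was 1 selected cell population and each library pooled many spheroids. The comparisons asked how an excess of either isoform, and the choice between them, went with the level of HOX transcripts by cluster and by paralog number.

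HOX genes encode homeodomain transcription factors that give cells their position along the body axis. They lie in 4 clusters that arose by duplication, so genes of the same number in different clusters are paralogs, and genes of low number (anterior) to high number (posterior) are used in order along the body. Posterior HOX genes, HOXB13 above all, are known from the prostate and the rest of the urogenital tract. NF-Y is a trimer that binds the letters CCAAT through its NF-YA subunit, while NF-YB and NF-YC are histone-fold proteins. NF-YAl and NF-YAs differ by the in-frame inclusion or skipping of an exon in the activation domain.

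In GRCh37, the build the reads were aligned to, the HOXA genes lay on chromosome 7, minus strand, and the HOXB genes spanned chr17:46605888-46806112, minus strand. The HOXC genes spanned chr12:54332615-54449814 and the HOXD genes chr2:176957449-177055635, both on the plus strand. Of the 39 genes, 20 had at least 1 start site in the RefSeq promoter table used here (GRCh38.p14 sequences, each found once in GRCh37). In the 250 bases before a start, 17 of these 20 genes held CCAAT on either strand (searched as CCAAT and ATTGG), against 10102 of the 27305 genes in the table. Counted over windows, 17 of 26 distinct HOX windows held it, against 32.0% of all 35116 windows. Genes of the table with several windows had more chances to hold a match, and the match is a description of letters and not of binding. The sites of the genes described in full are shown because CCAAT is the sequence that NF-Y is known to bind. Of those genes, HOXB5, HOXB6, HOXB13, HOXC9 and HOXC10 had no start site in the promoter table and were not searched. Each line gives 10 bases on either side, read on the strand that spells CCAAT, which is in capitals.
HOXA9, 55 bases before its start, chr7:27205197-27205221, minus strand: acgcgcacggCCAATgggggcgcgg
HOXA10, 249 bases before its start, chr7:27219715-27219739, minus strand: ccggggccggCCAATttgcatattt
HOXA10, 54 bases before its start, chr7:27213979-27214003, plus strand: gcgcccgcagCCAATcccgagccag
HOXA13, 128 bases before its start, chr7:27239824-27239848, minus strand: gggggccgggCCAATgggcggccgc
HOXD3, 41 bases before its start, chr2:177021984-177022008, minus strand: aattatttcgCCAATcacgtggtcg
HOXD4, 38 bases before its start, chr2:177016230-177016254, minus strand: accaggccagCCAATggcgagggag
HOXD13, 114 bases before its start, chr2:176957325-176957349, plus strand: ccgcgcgcagCCAATggcacgcccc
HOXD13 differed most from the Empty group, and its window, chr2:176957199-176957448, plus strand, lay outside any annotated gene of GENCODE, with 1 CCAAT in capitals.
HOXD13: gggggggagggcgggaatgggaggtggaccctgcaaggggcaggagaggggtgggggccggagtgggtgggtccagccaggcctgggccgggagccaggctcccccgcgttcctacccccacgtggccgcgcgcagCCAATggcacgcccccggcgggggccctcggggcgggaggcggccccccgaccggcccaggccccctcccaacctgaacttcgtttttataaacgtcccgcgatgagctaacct
The HOXA13 site fell within the gene HOTTIP on the opposite strand, and the sites of HOXD3 and HOXD4 lay within HOXD3 but outside its exons. The HOXA9 site and the nearer HOXA10 site were also intronic in longer transcripts, while the farther HOXA10 site overlapped an annotated untranslated exon.

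Library totals ran from 18076979 to 27163976 expected counts. HOX genes held between 13747 and 24098 of them, so the abundant members were measured to within a few percent and the rarest rested on single reads. NFYA was at 91.8 CPM on average in the Empty group, against 341 for NF-YAl and 261 for NF-YAs (CPM, counts scaled to library size after TMM), although reads of a murine transgene are counted only where they align to the human transcript. Epithelial KRT8 and KRT18 were at 70.4 to 423 TPM (a level per transcript length, scaled to the same total in each library) in every library, EPCAM and CDH1 at no more than 6.68, and summed leukocyte, endothelial and fibroblast markers at no more than 1.13, 2.89 and 0.49. Some of these markers differed between the groups, and their part in the HOX results was not tested. KRT8 had log2 fold changes of -1.33 in NF-YAl and -0.78 in NF-YAs (edgeR adjusted p = 2.5e-06 and 7.91e-05). The 4 epithelial markers had no common direction. In each line 1 of them was higher and 1 lower than in Empty (edgeR adjusted p under 0.01 and more than a doubling or halving). Of the 3 endothelial markers, VWF had -3.23 in NF-YAl and PECAM1 -1.73 in NF-YAs (edgeR adjusted p = 1.92e-06 and 4.8e-05), and CDH5 was at 0.03 to 0.12 TPM throughout. KLK3 was listed at 0 throughout. Library D of NF-YAl stood apart, since a gene's TPM there was 0.69 times its CPM (median over 13805 genes above 1 CPM) against 0.35 to 0.48 elsewhere, so the comparisons between groups are given in CPM and TPM serves to rank the genes.

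The HOX profile of the spheroids was posterior and was led by 1 gene. HOXB13 alone supplied 69.7% to 79.7% of all HOX TPM, and it ranked between 199 and 449 among all genes. It was followed by HOXA13 with a mean of 22.4 TPM over the 9 libraries, HOXA9 with 14.3, HOXB6 with 8.76 and HOXA10 with 8.11. In all, 16 of the 39 genes had a mean of at least 1 TPM and 6 of at least 5 TPM. The first 3 differed from one another by more than their spread in Empty, at 190 ± 20.6, 20.8 ± 2.44 and 11.3 ± 0.955 TPM (SD, n = 3), while HOXA10, at 7.37 ± 1.27, HOXA11, at 7.30 ± 0.823, and HOXB6, at 5.89 ± 0.696, did not stand clear of each other. At the other end, HOXB1 had 0 counts in every library, and 11 genes reached no more than 10 counts in any (HOXA7, HOXB1, HOXB7, HOXB8, HOXC11, HOXC12, HOXD1, HOXD9, HOXD10, HOXD11 and HOXD12). These 11 did not pass the filter on low counts and were not tested. Among them, HOXC11 had 7, 7 and 3 counts in the Empty libraries and 0 or 1 in each of the others. The remaining 28 genes entered the test, some of them only through the group in which they were higher, as HOXD13 did.

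**Figure D1:**
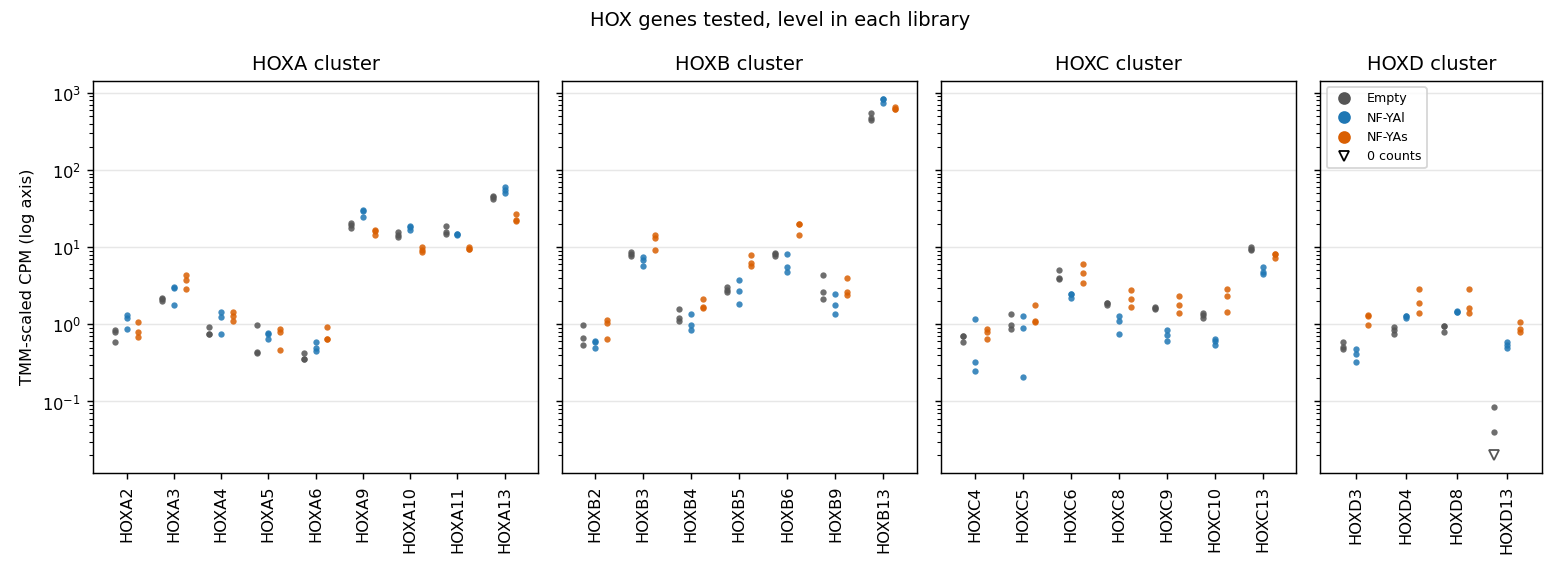
Level of 27 of the 28 tested HOX genes in each of the 9 libraries, in TMM-scaled CPM on a log axis, by cluster and in order of paralog number. Points are single libraries (grey Empty, blue NF-YAl, orange NF-YAs), and the open triangle marks 0 counts. HOXB13 lies above 445 CPM in every library, and the HOXD genes are near or below 3 CPM.

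A gene was called where the adjusted p of edgeR's quasi-likelihood test (Benjamini-Hochberg over 17108 genes) was under 0.01 and the absolute log2 fold change was above 1, that is, more than a doubling or halving. In NF-YAl against Empty 2 of the 28 tested HOX genes were called, HOXC9 lower and HOXD13 higher (the latter only a description because of its entry through the filter). Of all tested genes 8.27% were called (4.76% higher and 3.5% lower). With or without HOXD13, HOX genes were thus not called more often than other genes. In NF-YAs against Empty 5 of 28 were called, all higher (HOXB5, HOXB6, HOXD3, HOXD4 and, again as a description, HOXD13), beside 9.34% of all tested genes (5.44% higher and 3.9% lower). In NF-YAl against NF-YAs 6 of 28 were called, beside 4.61% of all tested genes (1.74% higher and 2.86% lower). HOXA13 was higher in NF-YAl, and HOXB5, HOXB6, HOXC9, HOXC10 and HOXD3 were lower there. Dropping the fold limit gave 5, 8 and 12 genes, beside 19.6%, 22.6% and 11% of all tested genes. Counted by libraries that did not overlap, 9 HOX genes were higher and 6 lower in NF-YAl than in Empty, beside 21% and 21.4% of all tested genes. In NF-YAs 14 were higher and 5 lower than in Empty, beside 29.2% and 27.1%, and in NF-YAl 5 were higher and 15 lower than in NF-YAs, beside 18.6% and 20.9%. The 3 comparisons share their libraries in pairs, and nothing in the labels says that the libraries of a group came from separate cultures, although the study's methods give 3 independent experiments. Where they did not, the p-values measure only technical spread.

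HOXB13, which marks the posterior end of the HOXB cluster and encodes a factor of the prostate epithelium, rose in NF-YAl. It measured 445, 547 and 478 CPM across the Empty libraries, against 836, 832 and 732 for NF-YAl, with NF-YAs at 613, 650 and 614. The 3 groups did not overlap, and the NF-YAl libraries held the 3 highest values. The log2 fold change was 0.71 ± 0.11 (SE) in NF-YAl (edgeR adjusted p = 0.000342), short of the doubling a call requires. It was 0.35 ± 0.11 in NF-YAs and 0.35 ± 0.11 between the lines, neither of which passed (edgeR adjusted p = 0.0204 and 0.03). Because HOXB13 is so abundant, it set the sum of the cluster, which was 514 ± 51.3 CPM for Empty, 819 ± 61.0 for NF-YAl and 669 ± 25.9 for NF-YAs (SD, n = 3). On the TPM scale the sums were 1.98 and 1.49 times the Empty mean.

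Without HOXB13 the HOXB cluster showed another picture. The remaining 9 genes summed to 24.1 ± 1.83 CPM for Empty, 19.1 ± 3.02 for NF-YAl and 42.8 ± 7.20 for NF-YAs (SD, n = 3), so the NF-YAs libraries were 1.78 times Empty and the 3 groups did not overlap. HOXB6, a central gene of thoracic identity, had 7.59, 8.11 and 8.30 CPM in the Empty libraries, 4.72, 8.22 and 5.50 in those of NF-YAl, and 14.4, 19.8 and 20.0 in those of NF-YAs. Every NF-YAs library lay above all 6 others, and NF-YAl overlapped Empty. The log2 fold change of HOXB6 was 1.17 ± 0.20 in NF-YAs (edgeR adjusted p = 0.000683), -0.37 ± 0.20 in NF-YAl (edgeR adjusted p = 0.188) and -1.55 ± 0.20 between the lines (edgeR adjusted p = 0.000317). Its neighbour HOXB5 measured 3.06, 2.82 and 2.60 CPM across the Empty libraries, against 2.71, 3.72 and 1.81 for NF-YAl, with NF-YAs at 5.76, 7.86 and 6.22. HOXB5 thus separated NF-YAs from both other groups in the same way. It rose by 1.23 ± 0.25 on the log2 scale in NF-YAs (edgeR adjusted p = 0.00215) and was lower in NF-YAl than in NF-YAs, with a log2 fold change of -1.27 ± 0.25 (edgeR adjusted p = 0.00363). Without Empty library B or C, or NF-YAs library B, the adjusted p of HOXB5 against Empty was 0.0103 to 0.0138, and without NF-YAs library B or C that between the lines was 0.0138 to 0.0227. HOXB3, an anterior gene of the hindbrain, had a log2 fold change of 0.58 in NF-YAs and -0.88 between the lines (edgeR adjusted p = 0.0218 and 0.00439), and HOXB4 had 0.49 and -0.76, neither of which passed.

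The genes around HOXB also had positive medians, and their part in these results was not tested. Over the 100 nearest tested genes that are not HOX (50 on each side, chr17:43035360-53250993), the median log2 fold change was 0.60 in NF-YAs and 0.44 in NF-YAl, and 22 and 13 of the 100 were called higher. In NF-YAs the medians were 0.60 on one side of the cluster and 0.61 on the other, and 0.89 over the 10 nearest genes. The corresponding medians were 0.40 and 0.16 around HOXA, 0.09 and -0.07 around HOXC, and 0.06 and 0.06 around HOXD, while those over all tested genes were 0.00 and 0.01. When the median of its neighbours was subtracted from each HOX gene, an alternative chosen after seeing the data, 6 genes instead of 5 passed in NF-YAs. Only the log2 fold change was shifted and the adjusted p was kept, so no gene was tested against its neighbours. In place of 5 genes that were all higher, 3 were higher and 3 lower, since HOXB5 and HOXB6 no longer passed and HOXA10, HOXA11 and HOXA13 did. Between the lines the 1 higher and 5 lower became 3 higher and 5 lower, with HOXA9 and HOXA10 added.

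Within HOXA, the posterior genes HOXA10, HOXA11 and HOXA13 fell in NF-YAs, while no other gene of the cluster passed the test there. HOXA13, a gene of the distal limb and urogenital tract, had 41.5, 46.1 and 44.2 CPM in the Empty libraries, 60.2, 49.7 and 55.5 in those of NF-YAl, and 26.8, 22.6 and 21.8 in those of NF-YAs. The groups did not overlap, and they ran in the order NF-YAs, Empty, NF-YAl. In NF-YAs HOXA13 fell by 0.89 ± 0.11 (log2) (edgeR adjusted p = 7.97e-05) and had a log2 fold change of 0.33 ± 0.11 in NF-YAl (edgeR adjusted p = 0.0358). Between the lines it was 1.22 ± 0.11 higher in NF-YAl (edgeR adjusted p = 3.47e-05), the lowest adjusted p of any HOX gene in that comparison.

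HOXA10, which patterns the uterus and hind limb, measured 14.5, 15.7 and 13.7 CPM across the Empty libraries, against 18.1, 18.9 and 16.8 for NF-YAl, with NF-YAs at 8.56, 10.003 and 9.17. HOXA9, a gene of blood progenitors and of the trunk, had 17.6, 19.7 and 20.5 CPM in the Empty libraries, 30.2, 24.5 and 29.2 in those of NF-YAl, and 14.5, 16.0 and 16.6 in those of NF-YAs. Both genes had the same order of groups as HOXA13, without overlap. HOXA10 fell by 0.66 ± 0.12 in NF-YAs (edgeR adjusted p = 0.00126) and HOXA9 rose by 0.54 ± 0.12 in NF-YAl (edgeR adjusted p = 0.00432), both short of a doubling or halving. The log2 difference between the lines was 0.96 ± 0.12 for HOXA10 (edgeR adjusted p = 0.000274) and 0.83 ± 0.12 for HOXA9 (edgeR adjusted p = 0.000603). HOXA11 fell by 0.77 in NF-YAs (edgeR adjusted p = 0.000576). The 4 posterior genes together summed to 94.2 ± 5.06 CPM for Empty, 116 ± 7.62 for NF-YAl and 58.3 ± 0.896 for NF-YAs (SD, n = 3). The posterior and the other tested HOXA genes had opposite signs against Empty in NF-YAs, where Spearman's rho between paralog number and log2 fold change was -0.84 over the 10 tested HOXA genes. It was -0.15 in NF-YAl. These genes share libraries and rise in level with paralog number (rho 0.83), so the rho is a description only. None of HOXA2 to HOXA6 passed at an adjusted p of 0.01 in NF-YAs, where their log2 fold changes were 0.18 to 0.95.

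**Figure D2:**
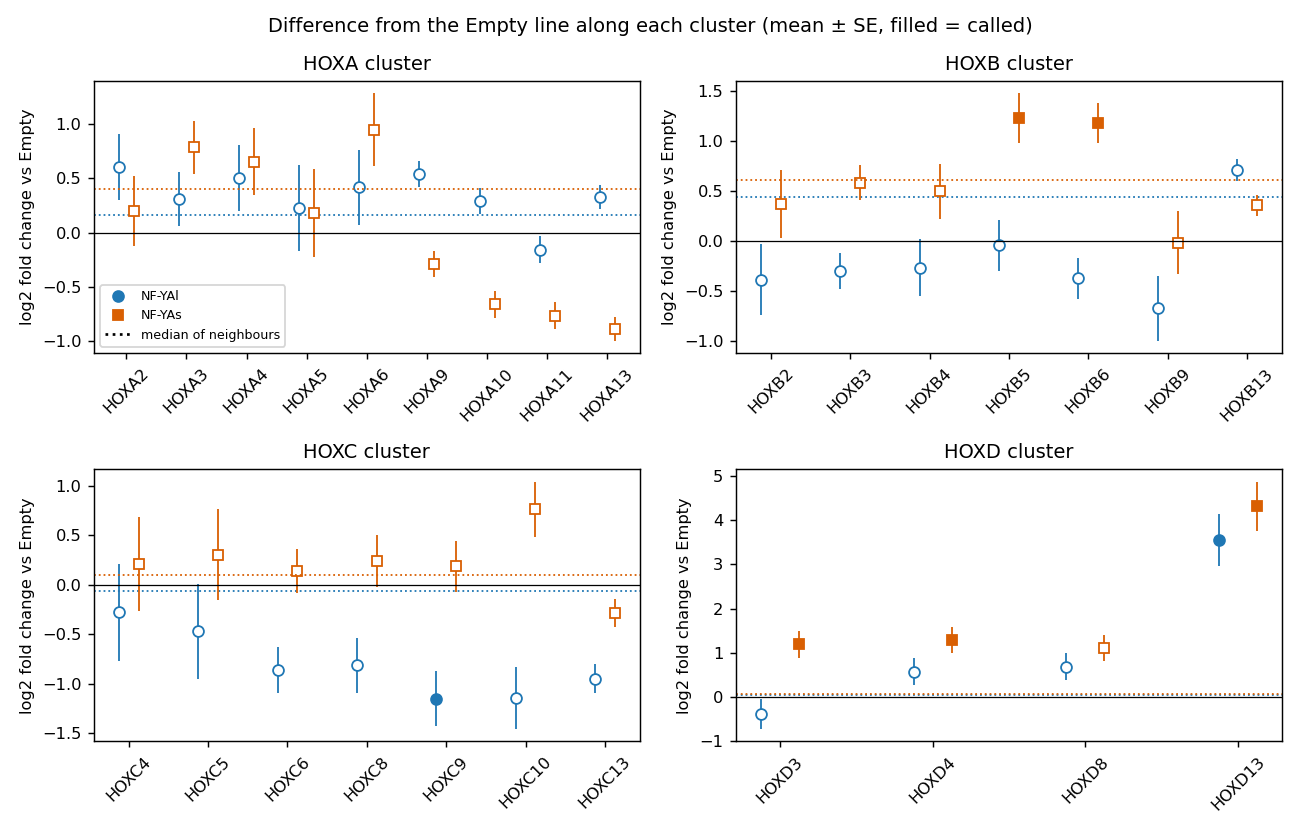
Log2 fold change against Empty (y axis, mean ± SE from edgeR, 3 against 3 libraries) of 27 of the tested HOX genes along each cluster (x axis, by paralog number) in NF-YAl (circles) and NF-YAs (squares), with called genes filled. Dotted lines give the median of the 100 neighbouring genes, and the y axes differ between panels. HOXA9 to HOXA13 lie below 0 in NF-YAs, every HOXC gene lies below 0 in NF-YAl, and HOXD13 lies above 3 in both.

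The HOXC cluster was lower in NF-YAl. Its 9 genes summed to 19.6, 20.5 and 21.7 CPM in the Empty libraries, 11.9, 11.9 and 9.41 in those of NF-YAl, and 18.9, 22.2 and 21.7 in those of NF-YAs, so NF-YAl was at 0.54 times Empty without overlap and NF-YAs overlapped Empty. On the TPM scale the ratio was 0.66 in NF-YAl. All 7 tested HOXC genes had a negative log2 fold change in NF-YAl, from -1.15 to -0.28, with a median of -0.86 against 0.01 over all tested genes. HOXC4 and HOXC5 overlapped Empty. Counts were fractional, from reads split between genes, in 3 libraries for HOXC4, 8 for HOXC5, 8 for HOXC6 and 7 for HOXC13. They were so in 0 for HOXC8, HOXC9 and HOXC10. Which genes shared the reads was not determined, so the 7 signs may not be separate. Of these 7, HOXC9 was called and HOXC13, a gene of hair and nail, passed without reaching a halving, with a log2 fold change of -0.95 (edgeR adjusted p = 0.000432). Just outside the threshold lay HOXC6 (edgeR adjusted p = 0.0129) and HOXC10 (edgeR adjusted p = 0.0152).

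HOXC9, a gene of the thoracic region, measured 1.68, 1.59 and 1.61 CPM across the Empty libraries, against 0.849, 0.736 and 0.616 for NF-YAl, with NF-YAs at 1.40, 2.34 and 1.80. All NF-YAl libraries were below all others, and Empty and NF-YAs overlapped. HOXC9 had a log2 fold change of -1.15 ± 0.28 in NF-YAl (edgeR adjusted p = 0.00753) and of -1.34 ± 0.28 between the lines (edgeR adjusted p = 0.00542). It rested on 15 to 47 counts a library, and its adjusted p against Empty was 0.0216 to 0.0258 without Empty library A, B or C or NF-YAl library B or D. Between the lines it was 0.0134 to 0.0315 without NF-YAl library B or D or NF-YAs library B or C. HOXC10, a lumbar and hind limb gene, had 1.22, 1.31 and 1.42 CPM in the Empty libraries, 0.637, 0.613 and 0.534 in those of NF-YAl, and 1.45, 2.89 and 2.35 in those of NF-YAs. The 3 groups did not overlap, with NF-YAl the lowest and NF-YAs the highest. HOXC10 had the largest difference between the lines of any tested HOX gene, with a log2 fold change of -1.91 ± 0.31 (edgeR adjusted p = 0.00115), but neither line passed against Empty, at -1.14 ± 0.31 and 0.76 ± 0.28 (edgeR adjusted p = 0.0152 and 0.0492).

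The HOXD cluster was the least expressed and was higher in both NF-YA lines. Its 9 genes summed to 2.56 ± 0.334 CPM for Empty, 3.87 ± 0.279 for NF-YAl and 6.46 ± 0.360 for NF-YAs (SD, n = 3), without overlap between any of the groups. HOXD13, the most posterior HOXD gene, which shapes digits and the urogenital tract, had 2, 1 and 0 counts in the Empty libraries, against 11, 12 and 13 for NF-YAl, with NF-YAs at 16, 16 and 23. Empty was thus at or below the floor of 3 counts per library, and every library of both NF-YA lines was above it. Against that floor, the mean HOXD13 level of NF-YAl was at least 4.43-fold higher, and that of NF-YAs at least 7.49-fold higher. HOXD13 passed the filter on low counts only through the groups in which it was high, so its calls against Empty are a description and no p is given for them. The fitted log2 fold changes of 3.55 in NF-YAl and 4.31 in NF-YAs depend on how counts near 0 are treated. The NF-YAs libraries lay above those of NF-YAl, but the difference did not pass (log2 fold change of -0.76 ± 0.37, edgeR adjusted p = 0.158).

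HOXD4, a gene of the hindbrain and neck, measured 0.923, 0.834 and 0.748 CPM across the Empty libraries, against 1.27, 1.27 and 1.19 for NF-YAl, with NF-YAs at 2.85, 1.39 and 1.89. HOXD3, its anterior neighbour, had 0.503, 0.477 and 0.590 CPM in the Empty libraries, 0.477, 0.327 and 0.411 in those of NF-YAl, and 0.970, 1.29 and 1.34 in those of NF-YAs. Both were highest in NF-YAs without overlap, and they parted in NF-YAl, where HOXD4 lay above Empty and HOXD3 overlapped it. In NF-YAs, HOXD4 rose by 1.28 ± 0.30 on the log2 scale (edgeR adjusted p = 0.0053) and HOXD3 by 1.19 ± 0.30 (edgeR adjusted p = 0.00862). Between the lines HOXD3 was lower in NF-YAl, with a log2 fold change of -1.57 ± 0.32 (edgeR adjusted p = 0.00442), and HOXD4 had -0.71 ± 0.29 (edgeR adjusted p = 0.0961). Both calls were thin. Leaving out any 1 of the 6 libraries moved the adjusted p of HOXD3 against Empty to 0.0131 to 0.0439, and leaving out any 1 except NF-YAs library B moved that of HOXD4 to 0.0143 to 0.0295. Without NF-YAl library B or NF-YAs library B or C, the adjusted p of HOXD3 between the lines was 0.0204 to 0.0267. HOXD8 was just outside, with a log2 fold change of 1.11 in NF-YAs (edgeR adjusted p = 0.0126).

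**Figure D3:**
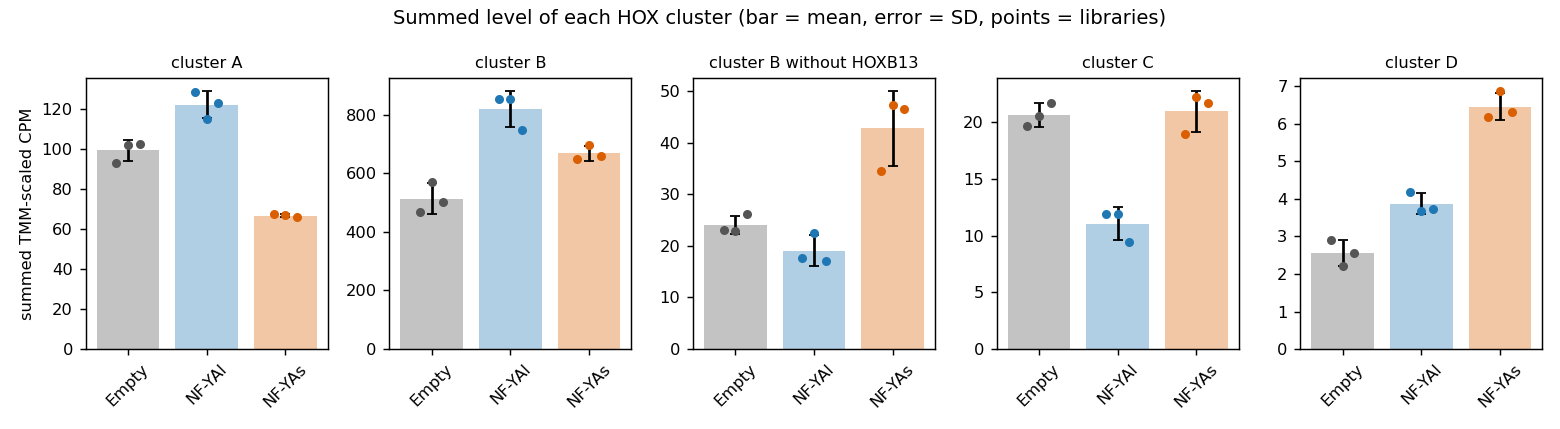
Summed TMM-scaled CPM (y axes, each from 0) of each HOX cluster, and of HOXB without HOXB13, in the 3 groups. Bars are means, error bars SD and points the 3 libraries. HOXC is lowest in NF-YAl at 11.1 CPM against 20.6 in Empty, and HOXD is highest in NF-YAs at 6.46 CPM against 2.56 in Empty.

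Read by paralog number instead of by cluster, members of a group often differed. In paralog group 13 of NF-YAs, HOXA13 fell and HOXD13 was above its Empty counts, while HOXB13 and HOXC13 had log2 fold changes of 0.35 and -0.29. In the same group of NF-YAl, HOXB13 rose, HOXD13 was above its Empty counts, HOXC13 fell, and HOXA13 had 0.33. In groups 9 and 10 the HOXA and HOXC genes differed in opposite directions between the lines, since HOXA9 and HOXA10 were higher in NF-YAl and HOXC9 and HOXC10 lower. In groups 5 and 6 of NF-YAs only the HOXB genes were called, and the HOXA and HOXC genes had log2 fold changes of 0.14 to 0.95. Whether paralogs differed from each other in their response was not tested.

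Taken over all clusters, the low numbers had 1 sign in NF-YAs. Of the 23 genes of paralog groups 1 to 8, 18 were tested, and all 18 had a log2 fold change above 0 in NF-YAs, from 0.14 to 1.28, with a median of 0.62. Beside this, 49.7% of all tested genes were above 0. Of the neighbours given above, 78% were above 0 around HOXA, 88% around HOXB, 61% around HOXC and 57% around HOXD. Their medians ran from 0.06 to 0.60. Over the 28 tested HOX genes, Spearman's rho with the log2 fold change in NF-YAs was -0.41 for paralog number and -0.41 for level. The part of level in the signs was not tested. Of these 18, 4 were called, all higher, which is 22.2% beside 9.34% of all tested genes called and 5.44% called higher. In NF-YAl the same 18 genes split into 7 above and 11 below 0, with a median of -0.15. The 10 tested genes of groups 9 to 13 split into 4 above and 6 below 0 in NF-YAs and 5 and 5 in NF-YAl. Summed over groups 4 to 8, the level was 23.6 ± 1.09 CPM for Empty, 19.8 ± 3.37 for NF-YAl and 42.4 ± 4.44 for NF-YAs (SD, n = 3), and over groups 9 to 13 without HOXB13 it was 110 ± 5.83, 125 ± 7.21 and 74.4 ± 0.753. The lower posterior sum of NF-YAs came from HOXA9 to HOXA13, whose own sum is given above, and HOXD13 and HOXC10 had positive log2 fold changes there.

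**Figure D4:**
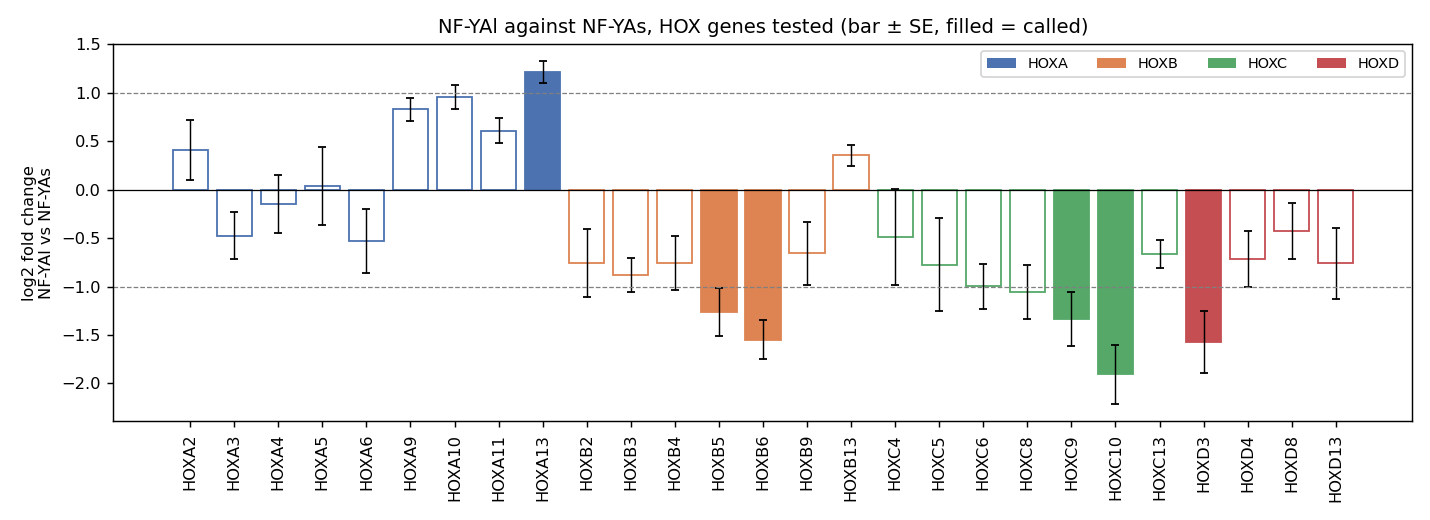
Log2 fold change of NF-YAl against NF-YAs (y axis, bar ± SE from edgeR, 3 against 3 libraries) of 27 of the 28 tested HOX genes in order of cluster and paralog number. Filled bars are called and dashed lines mark a doubling or halving. HOXA9 to HOXA13 and HOXB13 point up, and all HOXC and HOXD genes point down, HOXC10 furthest at -1.91.

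Transcript shares were described for genes with at least 2 listed transcripts and at least 1 TPM. The clearest was HOXA10, whose 2 transcripts are the coding NM_018951.3 and the noncoding NR_037939.1. The noncoding transcript took 51.9%, 40.4% and 53.1% of HOXA10 TPM in the Empty libraries, against 64.5%, 72.5% and 70.9% for NF-YAl, with NF-YAs at 62.7%, 66.3% and 43.6%. NF-YAl lay above Empty without overlap, and NF-YAs overlapped both. The means were 48.5% ± 7.02, 69.3% ± 4.24 and 57.6% ± 12.2 (SD, n = 3), and NF-YAl and Empty differed by 20.8 points. The exact two-sided permutation p of 0.1, the smallest that 3 against 3 allows, follows from the lack of overlap and adds no support. By the same permutation test, p was 0.3 for NF-YAs against Empty and 0.2 between the lines. HOXA10 was singled out as the clearest gene, so its shares are a description. HOXA10 had a fractional count in 8 of 9 libraries, against 2 for HOXA9, and which genes shared its reads was not determined. In HOXA3, HOXB3, HOXC6 and HOXD8 the shares varied widely within a group, as in NF-YAl, where the HOXA3 transcript NM_030661.4 took 43.2%, 75.8% and 100% of HOXA3 TPM, so no order of groups was read from them.

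**Figure D5:**
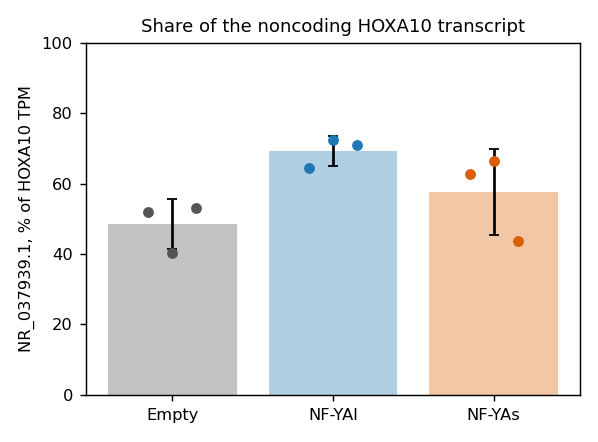
Share of HOXA10 TPM taken by the noncoding transcript NR_037939.1 (y axis, percent) in the 3 groups. Bars are means, error bars SD and points the 3 libraries, which lie at 40.4% to 53.1% in Empty and 64.5% to 72.5% in NF-YAl.

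Noncoding RNAs of the clusters were few. Of 25 listed, 17 were in the files and 7 were tested. HOXA11-AS, antisense to HOXA11, averaged 9.88 CPM for Empty, 12.7 for NF-YAl and 4.90 for NF-YAs, and it fell by 1.01 (log2) in NF-YAs (edgeR adjusted p = 0.00239). HOXB-AS3, which runs antisense over HOXB3 to HOXB6, averaged 1.95, 1.70 and 5.42 CPM and rose by 1.47 in NF-YAs (edgeR adjusted p = 0.000599). In NF-YAs both therefore had the same direction as the HOX genes they overlap. In NF-YAl HOXA11-AS had a log2 fold change of 0.35 and HOXA11 of -0.16, neither of which passed. HOXA11-AS and HOXB-AS3 also differed between the lines, by 1.36 and -1.68 (edgeR adjusted p = 0.000796 and 0.000697). The library kit keeps strand, but the sources used here do not state that the counting used it. Counts were fractional, a sign of reads split between genes, in 0 libraries for HOXA11, HOXB3, HOXB4 and HOXB5 and in 1 for HOXB6. Antisense reads counted whole for a HOX gene would leave no such sign, and this was not tested. Of the 7, edgeR called 1 higher and 1 lower in NF-YAs, and likewise between the lines, beside 9.34% and 4.61% of all tested genes. In NF-YAl 0 of the 7 were called by edgeR against Empty, beside 8.27% of all tested genes. DESeq2 called 1 there, and 2 had an unadjusted p under 0.05 in edgeR.

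Of 19 tested genes at the edges of the clusters, 1 was called in NF-YAl, 2 in NF-YAs and 1 between the lines, beside 8.27%, 9.34% and 4.61% of all tested genes. SKAP1, next to HOXB1, was lower in NF-YAl, with a log2 fold change of -1.60 against Empty (edgeR adjusted p = 0.00184), and -2.48 between the lines (edgeR adjusted p = 0.00017). PRAC2, next to HOXB13, rose by 1.16 in NF-YAs, from 9.44 to 21.0 CPM (edgeR adjusted p = 2.83e-05), and SNX10, beyond SKAP2 from the HOXA cluster, rose by 1.18 (edgeR adjusted p = 0.00207).

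Partners and regulators of HOX genes moved in single cases. Of all tested genes, edgeR called 8.27% in NF-YAl, 9.34% in NF-YAs and 4.61% between the lines. The share of all tested genes with an unadjusted p under 0.05 was not counted, so those counts stand without a background. Among 10 tested TALE homeodomain genes, which encode the DNA-binding partners of HOX proteins (PBX, MEIS, PKNOX) and the related TGIF repressors, TGIF2 rose in both lines, by 1.17 and 1.20 on the log2 scale (edgeR adjusted p = 7.7e-05 and 5.43e-05), and MEIS3 rose by 1.98 in NF-YAs (edgeR adjusted p = 0.000171). In NF-YAl, MEIS3 lay just outside the threshold, without overlap with Empty and with a log2 fold change of 1.08 (edgeR adjusted p = 0.0101), and DESeq2 called 2 of the 10 genes there against 1 by edgeR. Between the lines 0 were called by edgeR or DESeq2, and 4 had an unadjusted p under 0.05 in edgeR. Of 30 tested Polycomb genes, whose complexes keep HOX clusters silent, CBX2 fell by 1.08 in NF-YAl and by 1.02 in NF-YAs (edgeR adjusted p = 0.000279 and 0.000368), and PHC1 rose by 1.39 in NF-YAs (edgeR adjusted p = 2.66e-05). These calls, 1 of the 30 in NF-YAl and 2 in NF-YAs, were below the shares of all tested genes. Between the lines 0 Polycomb genes were called by edgeR or DESeq2, and 13 had an unadjusted p under 0.05 in edgeR. Of 19 tested genes of the opposing MLL complexes and H3K27 demethylases, 0 were called by edgeR or DESeq2 in any comparison, and 2, 8 and 4 had an unadjusted p under 0.05 in edgeR in NF-YAl, in NF-YAs and between the lines.

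Retinoic acid induces HOX genes in order along the cluster, and 14 genes of its pathway were tested. RARB, a receptor and classical target, averaged 0.760 CPM for Empty, 2.69 for NF-YAl and 9.71 for NF-YAs. It rose by 1.79 in NF-YAl and by 3.66 in NF-YAs (edgeR adjusted p = 0.00365 and 1.73e-05), and it differed between the lines by -1.87 (edgeR adjusted p = 0.0018). CYP26B1, which degrades retinoic acid, rose by 2.29 in NF-YAs (edgeR adjusted p = 0.000441), and CRABP1, a binding protein, rose by 3.60 in NF-YAl (edgeR adjusted p = 2.81e-05). CYP26A1, named after its values were seen because it stayed below 1 CPM, made up the third call in each line, both higher. All 3 called genes of each line were thus higher than in Empty. Of all tested genes, 8.27% were called for NF-YAl, against 9.34% for NF-YAs. With no fold limit the direction was mixed. NF-YAl then had 3 of the 14 higher and 1 lower, while NF-YAs had 4 higher and 2 lower. Between the lines CRABP1 was called higher in NF-YAl, and CYP26B1 and RARB lower, beside 4.61% of all tested genes. The median log2 fold change of the list against Empty was 0.04 for NF-YAl, compared with -0.12 for NF-YAs. The 8 ParaHox and EVX genes listed, close relatives outside or beside the clusters, did not pass the filter on low counts.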

How the data were processed

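RNA-seq libraries (stranded total RNA) of PC-3 spheroids were analysed in 3 groups of 3 libraries, grouped by the labels. The authors aligned reads with Bowtie2 within RSEM 1.3.1 to GRCh37/hg19 RefSeq transcripts and deposited expected counts and TPM per gene and transcript, and the percent of a gene's TPM taken by each transcript. How the authors' counting used strand is not given in the sources used here. Expected counts were rounded and fitted for all genes with edgeR 4.0.16 (filterByExpr, TMM scaling, quasi-likelihood F test, all 9 libraries in 1 fit, Benjamini-Hochberg), and SE is the absolute log2 fold change over the square root of F. The procedure was tested on simulated data. Alternatives were DESeq2 1.42.0, other scaling and filters, other thresholds, a replicate block and leaving out each library. The members, lists and tests were chosen with earlier results of these data known. HOX genes called in a comparison, or among the 5 of highest mean TPM, were described in full, and listed genes by name where called and above 1 CPM. Single values of 1 HOX gene, which the plots leave out, and of 1 marker gene are not reported here. Counting precision follows from the 18076979 to 27163976 counts per library and covers counting error only.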

Additional observations from a re-analysis of the deposited data

Results flagged for a closer look

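For 6 HOX genes the NF-YAl and NF-YAs lines differed by the direct test between them (edgeR, adjusted p under 0.01 and more than a doubling or halving). Each isoform was carried by 1 selected cell population, and mean NFYA was 341 CPM in NF-YAl and 261 in NF-YAs. Isoform, line and level of NF-YA cannot be told apart here. The log2 fold change of NF-YAl against NF-YAs was 1.22 for HOXA13, -1.27 for HOXB5, -1.55 for HOXB6, -1.34 for HOXC9, -1.91 for HOXC10 and -1.57 for HOXD3. HOXA13, HOXB6 and HOXC10 passed under every alternative run, and HOXB5, HOXC9 and HOXD3 did not.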

How the results depend on the processing

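Of 390 refits of single HOX genes described in full, 346 kept direction and side of the thresholds. HOXB6 was called in NF-YAs against Empty under every alternative except the subtraction of its neighbours' median, added after seeing the data, and requiring 10 counts in every library removed HOXD13. For NF-YAl against Empty, 1 HOX gene instead of 2 was called with at least 10 counts in every library, with only the 2 groups compared or with the replicate block, and 5 with no fold limit. For NF-YAs against Empty, 8 instead of 5 were called with no fold limit. For NF-YAl against NF-YAs, 3 instead of 6 were called with only the 2 groups compared and 12 with no fold limit. Leaving out each library gave 1 to 2, 2 to 4 and 3 to 7 calls in these comparisons. The HOXC ratio of NF-YAs to Empty was 1.02 in CPM and 1.17 in TPM.

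The small difference of HOXB5 between NF-YAl and Empty (log2 -0.04) became 0.13 with the replicate block and ran from -0.34 to 0.20 over left-out libraries, and that of HOXC9 in NF-YAs (0.18) ran from -0.018 to 0.35. Library letters were shared between groups, but the labels do not say whether a letter marks a shared experiment. Residual correlations were -0.07 to 0.25 in same-letter pairs and -0.22 to 0.16 in pairs of different letters. These overlapping ranges cannot decide whether same-letter libraries were paired, and the main fit did not pair them. The replicate block gave 1, 4 and 4 calls in the 3 comparisons and drew nothing from NF-YAl library D, the only library with its letter.

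Depth limits the 11 genes with no more than 10 counts in any library, which were not tested, and HOXC9, HOXC10, HOXD3, HOXD4 and HOXD13, which rested on fewer than 60 counts a library. Fractional counts, from reads shared between genes, occurred in 9 HOX genes.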
